A study of Mus musculus with 2 samples.

Results

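AMPA receptors are the glutamate-gated channels that carry most fast excitatory transmission in the brain, and their subunits GluA1, GluA2, GluA3 and GluA4 are encoded by Gria1, Gria2, Gria3 and Gria4. The accounts below describe open chromatin at these 4 genes, out of 21938 protein-coding genes of the mouse annotation GENCODE M21 on the chromosomes of the assembly mm10. The genes were chosen by name, as the complete subunit family. For each gene, peaks and footprints were taken within 500 bp of every annotated transcript start, called the promoter window, and in the gene record with 20 kb on either side, called the locus.

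The tissue was labelled as a hippocampal layer and came from female B6CASTF1/J mice, an F1 cross, aged 8 to 10 months. DNase-seq was made from it in 2 libraries, replicates 1 and 2 of 1 group, each from a pool of 2 biosamples. DNase I is an enzyme that cleaves accessible chromatin, so frequently cleaved sites are listed as peaks and short protected stretches as footprints, some of which lie outside the listed peaks. The labels give no treatment, genotype contrast or control, and leave unstated whether the 2 pools drew on different animals, so the spread between libraries may be partly technical.

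The 4 subunits assemble as tetramers in varying combinations. GluA2, whose transcript is edited by the enzyme ADAR2 (gene Adarb1), makes the channel nearly impermeable to calcium. GluA1 is the subunit best known for activity-driven insertion at hippocampal synapses, GluA3 pairs mostly with GluA2, and GluA4 in the adult hippocampus is known mainly from interneurons. In bulk tissue a low peak in every cell and a high peak in few cells cannot be told apart.

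The sequences printed next are those on which the results turn, and capitals mark bases that lay in a footprint of both libraries. The promoters of Gria2 and Gria4 are RefSeq windows of assembly GRCm38.p6 from 250 bases before the start to 50 bases after it, 5′ to 3′ in the direction of transcription. Gria2 lies on the minus strand at chr3:80802786-80803085 and Gria4 on the minus strand at chr9:4796185-4796484. The promoter windows of Gria1 and Gria3 are described by their values alone.

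Gria2 promoter: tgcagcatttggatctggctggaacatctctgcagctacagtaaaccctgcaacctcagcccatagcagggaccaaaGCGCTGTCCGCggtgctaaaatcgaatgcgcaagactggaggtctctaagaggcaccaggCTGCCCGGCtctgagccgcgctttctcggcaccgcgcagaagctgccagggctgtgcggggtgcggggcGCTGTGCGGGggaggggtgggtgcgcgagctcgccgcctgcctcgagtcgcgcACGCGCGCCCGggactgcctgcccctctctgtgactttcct
Gria4 promoter: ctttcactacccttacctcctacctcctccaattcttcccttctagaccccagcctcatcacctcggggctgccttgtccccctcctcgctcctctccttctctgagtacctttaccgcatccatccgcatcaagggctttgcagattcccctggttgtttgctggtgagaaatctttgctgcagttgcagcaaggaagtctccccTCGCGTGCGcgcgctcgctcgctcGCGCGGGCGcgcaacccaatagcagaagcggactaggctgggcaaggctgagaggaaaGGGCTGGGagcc

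Both starts lay in stretches rich in G and C, at 65.7% of bases in the Gria2 promoter and 59.7% in the Gria4 promoter. The Gria2 promoter held 4 stretches footprinted in both libraries, 41 bases in all, and the Gria4 promoter held 3 such stretches, 26 bases in all. In the Gria2 promoter the first capitalised stretch covers the letters of the right-hand part of the REST element, discussed with the motifs.

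The highest peak outside the promoter windows that both libraries listed is shown for each gene, on the plus strand of mm10, since these are the internal sites that the gene accounts refer to. The Gria1 site is chr11:57319461-57319700 in intron 15, and the Gria2 site is the centre of a longer peak, chr3:80801001-80801300, in intron 2. The Gria3 site is chrX:41425721-41425960 in intron 2, and the Gria4 site is chr9:4639261-4639500 in intron 4. Introns are numbered along the first listed transcript of each gene (Gria1-201 and so on).

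Gria1 highest shared peak: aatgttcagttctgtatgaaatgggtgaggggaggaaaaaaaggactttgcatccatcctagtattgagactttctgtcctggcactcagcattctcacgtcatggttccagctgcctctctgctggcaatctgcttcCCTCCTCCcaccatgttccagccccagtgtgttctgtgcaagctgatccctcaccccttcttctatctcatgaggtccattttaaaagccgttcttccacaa
Gria2 highest shared peak: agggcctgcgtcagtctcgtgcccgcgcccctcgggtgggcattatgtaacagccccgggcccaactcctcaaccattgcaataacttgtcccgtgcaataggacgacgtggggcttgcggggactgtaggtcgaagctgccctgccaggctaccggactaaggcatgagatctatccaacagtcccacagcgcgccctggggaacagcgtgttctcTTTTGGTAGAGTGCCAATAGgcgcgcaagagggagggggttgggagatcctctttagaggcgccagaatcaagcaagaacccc
Gria3 highest shared peak: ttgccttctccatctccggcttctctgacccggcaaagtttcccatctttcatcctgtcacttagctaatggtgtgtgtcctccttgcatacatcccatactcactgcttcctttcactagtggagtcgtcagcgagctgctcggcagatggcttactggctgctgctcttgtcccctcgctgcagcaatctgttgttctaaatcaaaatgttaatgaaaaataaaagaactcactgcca
Gria4 highest shared peak: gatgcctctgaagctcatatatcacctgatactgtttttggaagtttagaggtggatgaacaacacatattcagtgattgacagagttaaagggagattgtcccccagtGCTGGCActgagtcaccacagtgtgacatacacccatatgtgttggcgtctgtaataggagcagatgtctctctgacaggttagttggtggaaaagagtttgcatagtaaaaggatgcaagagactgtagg

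The Gria2 site carried the longest stretch in capitals, 20 bases in 1 run. The Gria1 site had 8 such bases and the Gria4 site 7. The Gria3 site had none, since its 2 footprints in replicate 1 and 1 footprint in replicate 2 did not meet.

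Replicate 1 listed 98902 peaks and 244447 footprints, and replicate 2 listed 130199 peaks and 251726 footprints. Of these, 81.6% of replicate 1 peaks and 62.0% of replicate 2 peaks overlapped a peak of the other library by at least 1 bp, as did 45.3% and 44.3% of the footprints. The peak height is a deposited signal with a median of 0.600 in replicate 1 and 0.580 in replicate 2. It rose in whole steps of 0.00606 in replicate 1 and 0.00795 in replicate 2, and the median peak stood at 99 and 73 steps. The meaning of a step was not stated by the labels or the deposited notes. Among marker genes, 8 of 8 of hippocampal excitatory neurons had an open promoter in each library, against 2 of 7 of interneurons, 4 of 5 of astrocytes, 5 of 7 of the oligodendrocyte lineage, 1 of 6 of microglia and 0 of 6 of other tissues. Intervals given below are Wilson 95% intervals for shares and exact Poisson 95% intervals for counts, and they cover counting error only.

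All 4 AMPA receptor genes had a peak in the promoter window in both libraries, where 59.2% of all protein-coding genes did (12982 of 21938). Against that background 4 of 4 is a small count and is given as a description. In replicate 1 alone the share of all genes was 60.4%, in replicate 2 alone 62.4%, and in both with windows of 2000 bp 63.5%. The stricter deposited peak lists also had a promoter peak for each of the 4 genes in both libraries, where 53.3% of all genes did. Open promoters were not equally high, and GluA2's gene stood above the other members.

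Gria2 (GluA2, chromosome 3, 80681450 to 80802835, minus strand) had a promoter signal of 2.51 in replicate 1 and 2.89 in replicate 2, a mean of 2.70 ± 0.26 (SD, n = 2). That mean is at percentile 57.0 (the share of values at or below it) of the 12982 promoters open in both libraries, whose median was 2.30. Gria2 was the single member above that median.

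Gria4 (GluA4, chromosome 9, 4417896 to 4796234, minus strand) had promoter signals of 1.19 and 1.30 in replicates 1 and 2, a mean of 1.25 ± 0.08 (SD, n = 2). The values of Gria4 come from neighbouring peaks that do not overlap, described below. Gria1 (GluA1, chromosome 11, 57011387 to 57330244, plus strand) had 1.03 and 1.38, a mean of 1.21 ± 0.25 (SD, n = 2). The Gria4 values lie within the range of the Gria1 values, so these neighbours in the order did not differ beyond the spread of the libraries. Both means stand near the lower quartile of open promoters, 1.22, at percentile 25.8 for Gria4 and 24.7 for Gria1.

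Gria3 (GluA3, chromosome X, 41400854 to 41678601, plus strand) had the lowest promoter signal, 0.533 in replicate 1 and 0.588 in replicate 2, a mean of 0.561 ± 0.039 (SD, n = 2), at percentile 6.02. These values come from different peaks that do not overlap, so the SD is not the spread at 1 site. The promoter peak that both libraries listed had 0.533 and 0.342, a mean of 0.438 ± 0.135 (SD, n = 2). The promoter signals of Gria3 did not overlap those of any other member, and neither did those of Gria2. With each library divided by its median over shared peaks, the scaled means were 3.58 for Gria2, 1.66 for Gria4, 1.59 for Gria1 and 0.745 for Gria3. That scaling cannot change the order within a library. The places of Gria2 and Gria3 were therefore fixed beforehand, and only those of Gria4 and Gria1 could have changed.

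**Figure D1:**
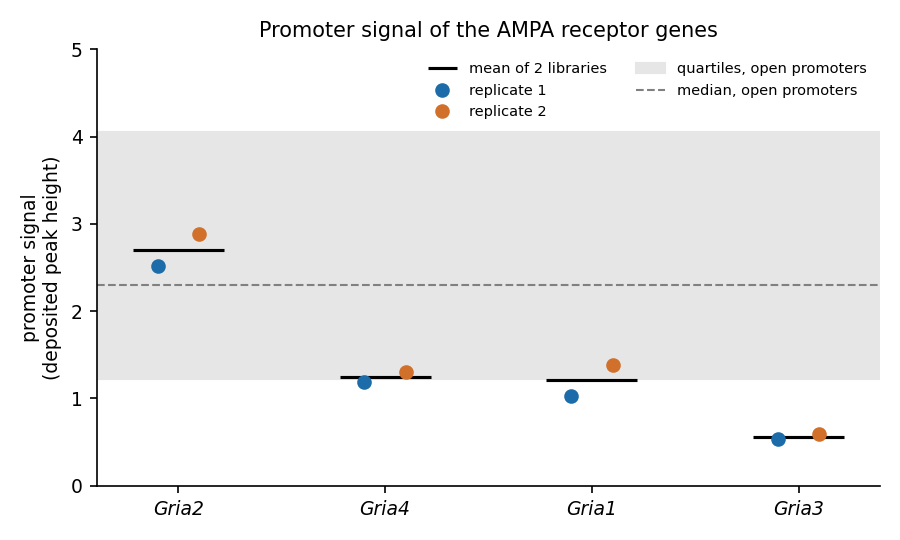
Promoter signal of each AMPA receptor gene (deposited peak height, no unit given) in replicate 1 and replicate 2, with the mean as a black bar. The grey band spans the quartiles 1.22 to 4.06 of the promoters open in both libraries and the dashed line their median of 2.30; Gria2 alone has both points above that line, and both Gria3 points lie under the band.

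CpG content, which goes with promoter openness across the genome, differed among the members. Over the 5 quintiles of all genes, from low to high observed over expected CpG around the 5′ end, the share open in both libraries was 10.3%, 30.4%, 71.9%, 89.6% and 93.7%. Gria1 had a ratio of 0.214 and fell in quintile 2, Gria3 (0.407) and Gria4 (0.494) in quintile 3, and Gria2 (0.685) in quintile 4. Among open promoters of their own quintile, Gria1 stood at percentile 47.9, Gria2 at 49.6, Gria4 at 33.0 and Gria3 at 8.46. Relative to promoters of like CpG content, Gria1 and Gria2 were thus both near the middle. Gria3 is the single member on chromosome X, where peaks were lower in general, with median heights of 0.388 and 0.382 by library (replicates 1 and 2), while those over all peaks were 0.600 and 0.580. Among the 421 chromosome X promoters open in both libraries, whose median was 1.34, Gria3 stood at percentile 17.8, and at percentile 18.0 among the 172 of them in its own CpG quintile. The part of the chromosome in the low Gria3 signal was not tested further.

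The members also differed in how much of the promoter was open around their annotated starts. GENCODE M21 lists 5 transcripts for Gria1, 8 for Gria2, 9 for Gria3 and 4 for Gria4. A peak lay within 500 bp of the start in both libraries for 8 of 8 Gria2 transcripts, 4 of 4 Gria4 transcripts, 3 of 5 Gria1 transcripts and 3 of 9 Gria3 transcripts. A peak covered the start base itself in both libraries for 7, 3, 1 and 1 of these, in the same order of genes.

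The 8 Gria2 starts lie within 256 bp of each other, at a promoter peak of 300 bp in replicate 1 and 400 bp in replicate 2. At Gria4 a pair of shared peaks lay side by side. The one over the annotated start had a height of 1.19 in replicate 1 and 1.25 in replicate 2, and the one centred 503 bp downstream had 0.933 and 1.30. The highest promoter peak of Gria4 was therefore the upstream peak in replicate 1 and the downstream peak in replicate 2.

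At Gria1 the shared promoter peak, 258 bp wide in replicate 1 and 280 bp in replicate 2, covered the start of Gria1-201, which lies 423 bp downstream of the 5′ end of the record. The protein-coding transcript Gria1-204, which starts 1659 bp downstream of that end, and the noncoding Gria1-205, which starts 165131 bp downstream, had no peak in their windows in either library.

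Gria3 was the member whose promoter the libraries described differently. Replicate 1 had 1 peak touching its promoter windows and replicate 2 had 7. The replicate 1 peak, 0.533 high, overlapped a replicate 2 peak of 0.342, whereas the highest peak of replicate 2, 0.588 high and centred 453 bp upstream of the 5′ end, had no counterpart. None of its bases had a deposited false discovery rate below 0.05 in replicate 1. In replicate 2 a peak lay near 8 of the 9 Gria3 starts, and the exception was Gria3-204, which starts 209343 bp into the gene.

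Beyond the promoters, the members are long genes. Their records span 318858 bp (Gria1), 121386 bp (Gria2), 277748 bp (Gria3) and 378339 bp (Gria4), at percentiles 97.6, 91.1, 97.1 and 98.2 of gene length. No other protein-coding gene lies in any of the 4 loci. Distances of shared peaks from the 5′ end are to the midpoint in replicate 1. Densities are set beside those of the 2492 protein-coding genes of 100 kb or longer, whose median was 4.39 peaks per 100 kb in replicate 1 and 6.10 in replicate 2.

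**Figure D2:**
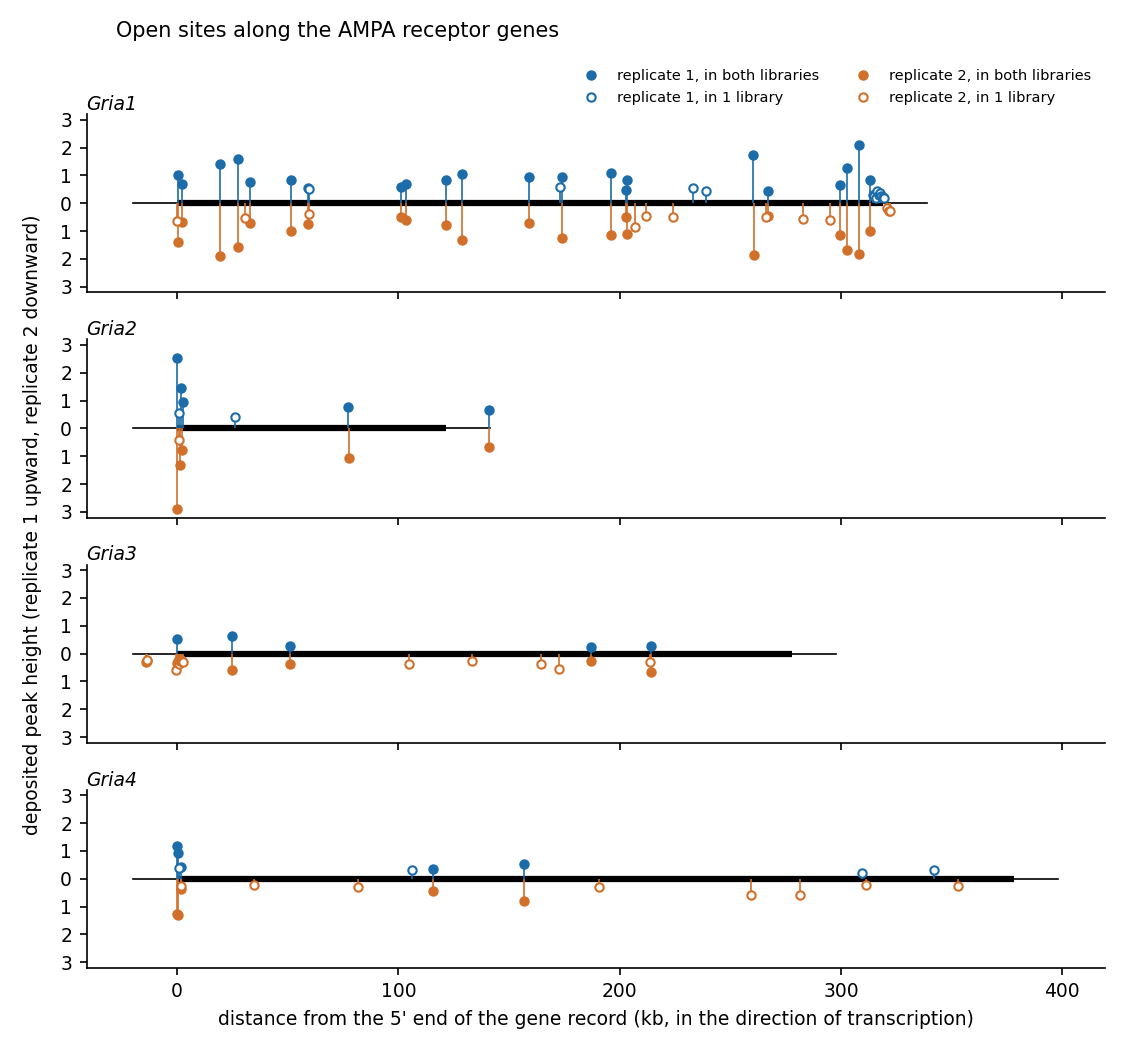
Peaks along the 4 AMPA receptor loci by distance from the 5′ end of the gene record (kb, in the direction of transcription), with peak height upward for replicate 1 and downward for replicate 2 (deposited signal). Filled points overlap a peak of the other library and open points do not, the thick line is the gene record and the thin line the 20 kb flanks; shared peaks run along the whole of Gria1 and are few in the bodies of the other genes.

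Gria1 had the most open sites of the members. Its locus held 35 peaks in replicate 1 (Poisson interval 24.4 to 48.7) and 34 in replicate 2 (23.5 to 47.5), or 9.75 and 9.47 peaks per 100 kb. The mean density, 9.61 ± 0.20 (SD, n = 2), was at percentile 91.4 of long genes. In both libraries the lower bound of the interval per 100 kb, 6.79 and 6.56, lay above the median of long genes.

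These sites were spread over the length of the gene. In the first, middle and last of 3 equal parts of the record, counted from the 5′ end, replicate 1 had 10, 8 and 15 peaks and replicate 2 had 11, 9 and 10. The longest stretch of the record without a peak in either library was 41.4 kb. Intron 2, at 170.5 kb the longest intron, held 13 peaks in each library, of which 11 were shared. Intron 5 held 3 in each library, all shared.

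Of the Gria1 peaks, 22 were shared, 62.9% of replicate 1 (Wilson 46.3% to 76.8%) and 64.7% of replicate 2 (47.9% to 78.5%). Over all peaks the shares were 81.6% in replicate 1, above that interval, and 62.0% in replicate 2, inside its interval. The interval treats peaks as independent, but 9 of the 13 unshared replicate 1 peaks lay in 1 run at the 3′ end. A shared site outside the promoter window was found 21 times, with mean heights between 0.458 and 1.96 and a median of 0.916. The highest of them exceeded the promoter itself. The site printed above, in intron 15 at 308194 bp from the 5′ end, had 2.08 in replicate 1 and 1.84 in replicate 2 (1.96 ± 0.17, SD, n = 2), against 1.03 and 1.38 at the promoter.

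Another Gria1 site, in intron 11, at 57271661 to 57272080, had 1.74 and 1.86 (1.80 ± 0.09, SD, n = 2). One in intron 2, at 57030521 to 57030760 and 19254 bp from the 5′ end, had 1.41 and 1.88 (1.64 ± 0.33, SD, n = 2). All 3 stood above both values of the promoter in each library. Among peaks outside promoters across the genome, the intron 15 site was at percentile 97.4 in replicate 1 and 95.5 in replicate 2.

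The highest single-library peak of Gria1, in intron 6 at 57218081 to 57218396, had 0.859 in replicate 2, and 48 of its bases were below a false discovery rate of 0.05 in replicate 1. At the 3′ end of the gene 9 of the 13 peaks that replicate 1 alone listed lay within 4.94 kb, with a median height of 0.273. Counting shared peaks alone gave Gria1 6.13 peaks per 100 kb, at percentile 84.7 of long genes, whose median was 3.66.

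Gria2, the shortest record, had few sites beyond its 5′ region. The locus held 7 peaks in replicate 1 (2.81 to 14.4) and 6 in replicate 2 (2.20 to 13.1), or 4.34 and 3.72 per 100 kb. The mean, 4.03 ± 0.44 (SD, n = 2), was at percentile 30.4 of long genes, and the intervals per 100 kb, 1.74 to 8.94 and 1.36 to 8.09, contain the long-gene medians. In each library 4 peaks lay within 5 kb of the 5′ end.

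Of the 15 introns of Gria2-201, 12 had no peak in either library, and the longest stretch without one was 51.2 kb, or 42.2% of the record. The shared sites were a pair just downstream of the promoter and a single site far inside. The first of the pair, at 80800941 to 80801540 and centred 1684 bp from the 5′ end, had 1.46 in replicate 1 and 1.31 in replicate 2. The other, at 80800261 to 80800560 and centred 2494 bp from the 5′ end, had 0.939 and 0.787.

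Both lie in intron 2 of Gria2-201 and inside the long exon of the retained-intron transcript Gria2-205. The inner site, in intron 5 at 80725181 to 80725520 and 77423 bp from the 5′ end, had 0.763 and 1.07. The last shared peak lay in the downstream flank, with 0.654 in replicate 1 and 0.652 in replicate 2. Unlike at Gria1, no shared internal site of Gria2 reached the promoter height in either library.

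The highest single-library peak of Gria2, 0.570 in replicate 1 at 80801701 to 80801972, had all 272 of its bases below a false discovery rate of 0.05 in replicate 2. The 2 lists thus differed there in where a peak was called.

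Gria3 differed most between the libraries. Replicate 1 had 5 peaks in its locus (1.62 to 11.7) and replicate 2 had 20 (12.2 to 30.9), or 1.57 and 6.29 per 100 kb. Replicate 1 was at percentile 8.43 of long genes and replicate 2 at percentile 52.5, and the mean of 3.93 had an SD of 3.34 (n = 2), nearly its own size. The level of Gria3 in the order of densities is therefore not fixed by these libraries.

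All 5 replicate 1 peaks overlapped peaks of replicate 2, and the 15 other peaks of replicate 2 had no base below a false discovery rate of 0.05 in replicate 1. Of the replicate 2 peaks, 8 lay within 5 kb of the 5′ end, where replicate 1 had 1. A run of 6 neighbouring single-library peaks of replicate 2 lay within 2.45 kb from 41401281 to 41403734, with a median height of 0.266.

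On shared peaks alone Gria3 had 1.57 peaks per 100 kb, at percentile 12.4 of long genes. The shared internal sites were low. The highest, printed above, had 0.630 in replicate 1 and 0.604 in replicate 2 (0.617 ± 0.018, SD, n = 2). In each library it stood above the promoter signal of the gene, 0.533 and 0.588.

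The next, in intron 11 at 41615061 to 41615260, had 0.279 in replicate 1 and 0.660 in replicate 2. Another in intron 2, at 41451681 to 41451965, had 0.273 and 0.374. The last 63.3 kb of the record had no peak in either library.

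Gria4, the longest record, had the sparsest locus by mean density. It held 9 peaks in replicate 1 (4.12 to 17.1) and 13 in replicate 2 (6.92 to 22.2), or 2.15 and 3.11 per 100 kb. The mean, 2.63 ± 0.68 (SD, n = 2), was at percentile 12.6 of long genes. The upper bounds of the intervals per 100 kb, 4.08 and 5.31, lay under the medians of long genes, 4.39 and 6.10.

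In each library 4 Gria4 peaks lay within 5 kb of the 5′ end, as at Gria2. Introns 3 and 4, of 128.8 kb and 126.9 kb, held 2 and 1 peaks in replicate 1 and 3 and 2 in replicate 2, against 13 in intron 2 of Gria1 in each library. The longest stretch without a peak in either library was 68.4 kb.

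Shared internal sites of Gria4 numbered 3. The one printed above, in intron 4, had 0.545 in replicate 1 and 0.811 in replicate 2. In intron 3, 4680365 to 4680540 had 0.351 and 0.437, and in intron 2, 4794401 to 4794701 had 0.406 and 0.358. None reached the promoter height of the gene. The highest single-library peak, in intron 6 at 4514501 to 4514740, had 0.596 in replicate 2 and no base below a false discovery rate of 0.05 in replicate 1.

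**Figure D3:**
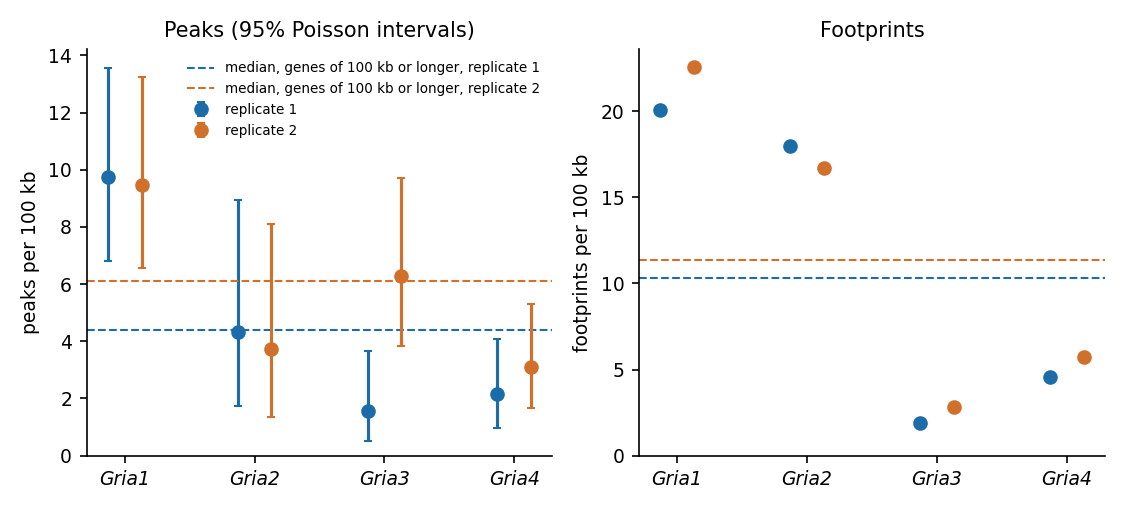
Peaks per 100 kb with exact Poisson 95% intervals (left) and footprints per 100 kb (right) in each AMPA receptor locus, by library. Dashed lines are the medians of the 2492 protein-coding genes of 100 kb or longer in the same library; Gria1 lies above both lines for peaks and footprints, Gria4 under both, and the Gria3 peak values of the libraries stand far apart.

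Footprint density separated the members further and put Gria2 closer to Gria1. The Gria1 locus held 72 footprints in replicate 1 and 81 in replicate 2, or 21.3 ± 1.8 per 100 kb (SD, n = 2), at percentile 88.1 of long genes. Gria2 held 29 and 27, or 17.3 ± 0.88 per 100 kb, at percentile 78.2. Although its peak density lay under the long-gene median, its peaks held more footprints each than those of the other members, 3.0 and 3.83 per peak in replicates 1 and 2, beside 1.91 and 2.12 at Gria1. Of the Gria2 footprints 21 of 29 and 23 of 27 lay in a peak.

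Gria4 held 19 and 24 footprints, or 5.14 ± 0.85 per 100 kb, and Gria3 held 6 and 9, or 2.36 ± 0.67 per 100 kb. These are percentiles 16.7 and 5.58 of long genes, whose medians were 10.3 and 11.4 footprints per 100 kb. Of the 20 replicate 2 peaks of Gria3, 7 held a footprint. Footprints shared between the libraries numbered 30 at Gria1, 12 at Gria2, 6 at Gria4 and 0 at Gria3. At Gria3 a count of 0 of 6 allows a share of up to 39.0% in replicate 1 and 0 of 9 up to 29.9% in replicate 2 by the Wilson interval. Both bounds lie under the shares over all footprints.

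A total of 16 short motifs was searched on both strands in the promoters and in the 56 replicate 1 and 73 replicate 2 peaks of the 4 loci. They are given with the share of the 32851 RefSeq promoter windows of 300 bases that hold them. For factors of general promoters these were the NRF1 site (GCATGCGC, 2.71%), the SP1 site (GGGCGG, 35.7%), the CCAAT box, present in 37.4% of promoters, and the TATA box, whose letters TATAAA were in 13.6%. For factors that follow neuronal activity they were the CRE (TGACGTCA, 1.79%), its short core (TGACG, 20.8%), AP-1 (TGANTCA, 7.81%), EGR (GCGTGGGCG, 0.612%) and MEF2 (CTAAAAATA, 0.517%).

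For neuronal and other factors they were the E-boxes CAGATG (17.2%) and CAGCTG (16.3%), the NFI site (TTGGCA, 14.1%), RFX (GTTGCCATG, 0.773%) and the CTCF core (GNGGNGGCA, 8.96%). The REST element was searched by its left-hand part (TTCAGCACC, 0.371%) and its right-hand part (GGACAGCGC, 0.405%). The CRE contains its own short core, so those matches overlap. A match is a description of letters and not evidence of binding.

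REST is the repressor that keeps neuronal genes silent outside neurons, and a REST element has been described in the GluA2 gene promoter of the rat. The right-hand part occurred once in the mouse Gria2 promoter, on the strand opposite to transcription, at bases 78 to 86 of the printed sequence counted from its 5′ end. It begins 173 bases upstream of the start. Footprints at bases 77 to 91 in replicate 1 and 78 to 88 in replicate 2 covered all of it. In replicate 1 this footprint lay upstream of the promoter peak, which ended at 80802920, and in replicate 2 it lay inside the peak, which ended at 80803040.

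The left-hand part was not found in the printed promoters. In 133 of the 32851 RefSeq windows the right-hand part was present. Neither part was in the Gria4 promoter, which held CCAAT at bases 29 to 33 and 246 to 250, outside the footprints of both libraries. The other 14 motifs were not in either printed promoter.

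In the internal Gria2 site printed above, the 20 footprinted bases hold the NFI site on the opposite strand at bases 229 to 234 and CCAAT at bases 231 to 235, and these matches overlap. Elsewhere in the printed sites matches were covered less evenly. The CAGCTG of the Gria1 site touched a footprint in replicate 2 alone, and the AP-1 match of the Gria4 site touched one in replicate 1 alone.

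Over all 4 loci, CAGATG, an E-box bound by proneural factors such as NEUROD, was in 30.4% of member peaks in replicate 1 and 35.6% in replicate 2, against 25.1% and 27.4% of all peaks. Of the member peaks with CAGATG, 12 of 17 in replicate 1 and 15 of 26 in replicate 2 were at Gria1. CCAAT was in 35.7% and 30.1% of member peaks, against 24.8% and 25.4% of all peaks. The NFI site was in 23.2% and 21.9% of member peaks, against 18.6% and 19.4% of all peaks. The other E-box, CAGCTG, was in 12.5% and 12.3% of member peaks, against 19.3% and 18.2% of all peaks. SP1 letters were in 3.57% and 6.85% of member peaks, against 17.7% and 14.3% of all peaks. The CTCF core was in 0 of 56 and 1 of 73 member peaks, against 6.48% and 5.61% of all peaks. The median GC content of member peaks ran between 43.2% and 49.7% by gene and library, against 52.4% and 49.8% for all peaks, and its part in these shares was not tested.

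Of the motif matches in member peaks, 15 of 84 in replicate 1 and 22 of 110 in replicate 2 touched a footprint, and 7 and 10 were covered in full. The matches were counted and not tested.

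Genes whose products bind, place or edit AMPA receptors were described by 3 lists. Of the auxiliary subunits and assembly factors 16 of 23 had a promoter peak in both libraries (69.6%), of the scaffold, trafficking and extracellular organiser genes 23 of 24 (95.8%), and of the RNA editing and splicing genes 11 of 11. The background for all genes is the 59.2% given above. The median promoter signal of open genes was 1.23 for the 4 receptor genes, 1.26, 1.38 and 2.80 for these lists in the same order, and 2.30 for all open promoters.

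Among the auxiliary genes the highest promoters were those of Shisa7 (3.27 and 3.47 in replicates 1 and 2), a subunit of the CKAMP family, Cpt1c (2.05 and 2.57), whose protein acts on receptor assembly in the endoplasmic reticulum, and Abhd6 (1.76 and 2.08), a hydrolase that limits receptor delivery. Cacng2, which encodes stargazin, the founding member of the TARP family, had 1.58 and 1.75, and Cacng8, a TARP rich in the hippocampus, had 1.15 and 1.33. Cnih2, a cornichon with hippocampal expression, had a promoter peak in replicate 2 alone, at 1.29. Cacng5, Gsg1l and Olfm2 were among 5 auxiliary genes with no promoter peak in either library.

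Among scaffold and trafficking genes Dlg2, which encodes PSD-93, had 8.06 and 7.11, the highest of any gene in these lists. Pick1, whose PDZ domain binds GluA2 and GluA3, had 5.73 and 6.01, and Rab11a, a GTPase of recycling endosomes, had 3.48 and 4.76. Dlg4, which encodes PSD-95, had 3.09 and 2.37, and the immediate early gene Arc had 3.51 and 4.24. Nptxr, a neuronal pentraxin receptor, was the single gene of the list without a promoter peak.

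Of the editing and splicing genes the highest were Elavl2 (5.52 and 5.77) and Nova2 (4.61 and 4.75), neuronal RNA-binding proteins, and Srsf1 (3.87 and 4.98), a general splicing factor. Adarb1, the enzyme that edits the GluA2 transcript, had 1.47 and 1.88. The Gria2 promoter, with 2.51 and 2.89, stood above both Adarb1 values.

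**Figure D4:**
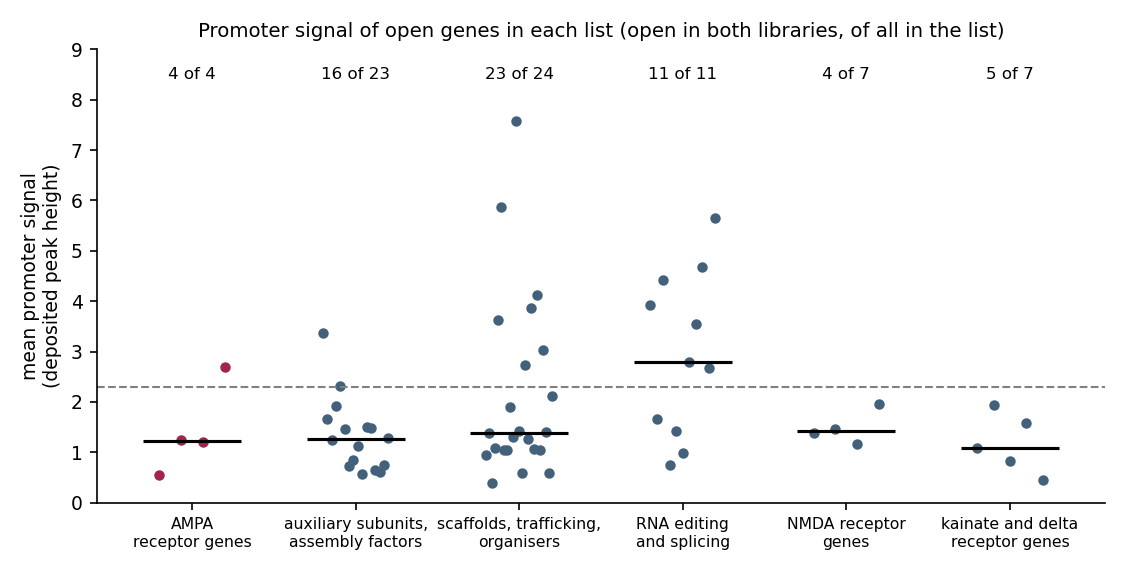
Mean promoter signal over both libraries (deposited peak height) of each gene open in both, for the 4 AMPA receptor genes and 5 gene lists; numbers above each column give the open genes of all in the list. Black bars are medians and the dashed line is the median of all promoters open in both libraries, 2.30; medians of all lists but the RNA editing and splicing genes lie under it.

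Beside 4 of 4 AMPA receptor genes, 4 of 7 NMDA receptor genes and 5 of 7 kainate and delta receptor genes were open in both libraries, and that difference was not tested. Grin1, the obligatory NMDA receptor subunit, had promoter signals of 1.83 and 2.08, under both Gria2 values and above both values of the other AMPA receptor genes. Grin2a had 1.19 and 1.73 and Grin2b 1.45 and 1.34, which overlap or exceed the values of Gria1 and Gria4. Grik4 had 1.73 and 2.14 and Grik2 1.10 and 2.08. Grin2c, Grin2d, Grin3b and Grik3 had none in either library.

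Peak density also varied among the other long glutamate receptor genes. Gria1, at 9.61 ± 0.20 peaks per 100 kb, stood beside Grin2a at 8.87 ± 1.97 and Grik4 at 7.61 ± 2.27. Gria4, at 2.63 ± 0.68, stood beside Grik2 at 2.52 ± 1.25 (SD, n = 2 each). The values of Gria4 and Grik2 overlap, and Grin2a reached 10.3 in replicate 2, above both Gria1 values.

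Likeness over 4 measures (promoter signal, peaks per 100 kb, footprints per 100 kb and record length, each on a log scale and in SD units) was computed against the 12982 genes open in both libraries. The nearest genes to Gria1 were Sdk2, at a distance of 0.155 SD, and Tmcc3 at 0.173. Those to Gria2 were Kansl1l at 0.323 and Qk at 0.329, and those to Gria4 were Itgbl1 at 0.177 and Mei4 at 0.271. Gria3 had the most distant neighbours, Dnah7c at 0.553 and Cntnap4 at 0.594, with densities of 2.84 and 3.12 peaks per 100 kb. The AMPA receptor genes themselves were not candidates, so their likeness to each other was not described.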

How the data were processed

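Peaks, footprints and base intervals of 2 DNase-seq libraries of 1 group were read as the authors deposited them, called per library on mm10, per the labels and the deposited notes, with tools and versions not given in the sources used here. The deposited peak height is a signal of unstated scale, and its values are whole multiples of 1 step per library (within 0.05 of a step in 100% of peaks). The deposited false discovery rates and footprint thresholds are p-value type units, listed below 0.05 and at 0.01. Reads of an F1 cross were placed on the reference assembly, and the effect of strain differences was not tested.

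Overlaps were counted in Python 3.11.15 with numpy 2.4.6, pandas 2.3.3 and scipy 1.17.1, with a minimum of 1 bp, and the code was tested on simulated intervals. A gene's promoter signal is its highest peak touching any promoter window, and a peak or footprint belongs to a locus when its midpoint lies there. The larger peak lists were the main ones. Figures were drawn with matplotlib 3.10.9. With 1 group no test between conditions was possible. The members, gene lists, markers and motifs were chosen with earlier results of these data known. Named genes were the 4 members, the 3 highest shared and the highest single-library peak of each locus, the 3 highest and the first 3 closed genes of each list, and the 2 nearest genes; Cacng2, Cacng8, Cnih2, Dlg4, Arc and Adarb1 were added after their values were seen. A gene that this rule takes is not reported here. Alternatives were other windows and flanks, the stricter lists, a reciprocal overlap of 0.5, each library left out, joined peaks and shared peaks alone.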

Additional observations from a re-analysis of the deposited data

How the results depend on the processing

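All 4 genes kept a promoter peak in both libraries, and their promoter signals stayed within 1 SD, with 2000 bp windows, the 5′ end alone and the stricter lists. Each gene had a promoter peak in either library taken alone, and with 2 libraries leaving one out cannot move a mean by 1 SD. The share of all genes open in both libraries was 63.5% with 2000 bp windows, 53.3% with the 5′ end of the record alone and 53.3% with the stricter lists, and 60.4% to 62.4% with 1 library left out. Densities moved most with the peak list. With the stricter list Gria1 had 5.29 peaks per 100 kb, Gria2 2.79, Gria3 1.42 and Gria4 1.20, and with shared peaks alone 6.13, 3.10, 1.57 and 1.20. Without promoter peaks Gria1 had 9.20 and Gria2 3.10, with 100 kb flanks 8.09 and 4.51, and Gria1 had 9.88 without flanks and 8.78 with peaks closer than 200 bp joined. Joining peaks and using shared peaks alone were chosen after seeing the data. Among all genes the place of Gria1 was percentile 72.0, with 62.8 on shared peaks, 63.2 on the stricter list and 90.6 without promoter peaks. Gria2 was at 30.5 among all genes, with 47.0 without flanks and 43.8 without promoter peaks. Gria4 was at 21.9 among all genes, with 15.9 at 100 kb flanks, 40.5 without flanks, 21.3 with joined peaks, 18.2 on shared peaks, 20.9 on the stricter list, 30.4 without promoter peaks and 22.2 to 22.4 with 1 library left out. Among long genes, with the same peaks counted, Gria1 was at 91.4 and Gria4 at 12.6. The cause of these shifts was not tested.

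Footprints inside peaks of both libraries came to 14.2, 9.91, 1.42 and 3.11 per 100 kb for Gria1 to Gria4. The shares that follow are unweighted means of the shares in the 2 libraries. A reciprocal overlap of 0.5 put shared footprints at 28.9% (Gria1), 39.3% (Gria2) and 23.6% (Gria4) and shared peaks of Gria1 at 58.0%. The stricter list put shared peaks at 67.5% (Gria2), 32.1% (Gria3, 62.5% in the larger lists) and 71.4% (Gria4). Its peaks in replicates 1 and 2 numbered 4 and 5 at Gria2, 2 and 7 at Gria3, and 3 and 7 at Gria4. Such counts are too few to fix a share. In the larger lists 5 of 5 Gria3 peaks of replicate 1 and 5 of 20 of replicate 2 were shared. The mean of 62.5% is thus the share of neither library. Motif matches covered in full by a footprint numbered 7 and 10. The main limits are the 2 libraries, the unknown depth in reads and Gria3, whose 5 and 20 peaks leave its density unsettled. No paired analysis was possible because the labels give 1 group.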

Other observations

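The ratio of replicate 2 to replicate 1 peaks at Gria3, 4.0, was singled out after its value was seen. Of the 2195 protein-coding genes of 100 kb or longer with at least 5 replicate 1 peaks, Gria3 had the highest ratio, and their median was 1.36. With 5 replicate 1 peaks Gria3 sits at that minimum, where a ratio varies most by counting error. The 63 such genes on chromosome X had a median of 1.17, and over all peaks the ratio was 1.32. At Gria1, Gria2 and Gria4 it was 0.971, 0.857 and 1.44.

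Runs of at least 5 neighbouring peaks less than 2 kb apart that a single library listed numbered 253 in replicate 1 and 40 in replicate 2. They touched 2.36% and 0.219% of all gene loci. At Gria3 a run of replicate 2 held 6 peaks over the start region, and at Gria1 a run of replicate 1 held 9 peaks over the 3′ end, with median heights of 0.266 and 0.273.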
